A study of Citrus sinensis with 6 samples.

Results

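Abscisic acid is the hormone with which plants close their stomata and slow growth when water is short or salt is high, and its synthesis in leaves is best known from Arabidopsis. In the plastid, 9-cis-epoxycarotenoid dioxygenase (NCED) cleaves an epoxidized carotenoid to xanthoxin, the step regarded as rate-limiting. Xanthoxin is converted to abscisic aldehyde in the cytosol, and abscisic aldehyde oxidase, an enzyme that needs a sulfurated molybdenum cofactor, makes abscisic acid from it. The genes described here are the 8 of 29875 genes in the deposited table of sweet orange (*Citrus sinensis*) whose function annotation holds the term for either enzyme. The dioxygenase term marked 5 genes and the oxidase term 3, and the rule uses these annotation terms and no expression value, although it was set with earlier results of these data known.

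RNA from leaves of tissue-cultured seedlings was sequenced in 3 control libraries, grown with no NaCl, and in 3 libraries of seedlings given 2% NaCl for 14 days. Each library is a biological replicate of pooled seedlings, according to the study's methods. In the titles, the controls are leaf blades treated with sterile water while the NaCl samples are only called leaf, so which leaf part was taken and the NaCl treatment cannot be told apart. One protocol text in the labels names boron and another length of treatment. The treatment labels and the study's methods name NaCl, and the titles and those methods give 14 days, which was followed here. In bulk RNA, a change in the number of cells of a type and a change in RNA per cell cannot be told apart.

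Depth, recovered from the steps of the deposited values, was 14325408 to 17558452 reads in control and 17307079 to 19520980 reads in NaCl. Genes of photosynthesis were abundant, with a median of 32.3 FPKM over 67 genes (1.60 over all genes), and of 6 genes annotated to the Casparian strip of roots 2 were at 0 in every library. The summed FPKM of those 6 genes was 6.04 to 7.34 in control and 9.57 to 15.4 in NaCl. A wider list of 57 genes with root terms went both ways, with 23 of 41 tested genes positive and 18 negative, and its sums overlapped (786 to 844 in control, 681 to 886 in NaCl). The first principal component separated the groups, but control replicate 2 lay at -9.50, between the other controls at -51.5 and -66.3 and the NaCl libraries at 25.6 to 51.7. The summed FPKM of the photosynthesis genes was also lowest in control replicate 2, at 4889, against 6073 and 9627 in the other controls and 7443 to 11285 in NaCl. Of 54 tested photosynthesis genes 48 had a positive log2 fold change, beside 64.7% of all tested genes. Their median was 0.53 (0.18 over all tested genes). At an unadjusted p of 0.05 from limma 21 were higher in NaCl (0 at the adjusted p), beside 3301 of all 17285 tested genes. The part of these differences in the values below was not tested.

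The annotation of the 8 genes fell into distinct kinds. Among the dioxygenase genes, Cs_ont_2g002030, Cs_ont_5g033020 and Cs_ont_9g012550 carried the process term abscisic acid biosynthesis and the compartments chloroplast stroma and thylakoid membrane. Only Cs_ont_5g033020 of the 8 genes was also annotated with responses to salt stress and to hyperosmotic conditions. The other dioxygenase genes did not carry the abscisic acid term. Cs_ont_1g027660 was annotated with strigolactone biosynthesis and secondary shoot formation, and Cs_ont_7g028730 with carotenoid catabolism, the vacuolar membrane and the plasma membrane. The label of abscisic acid synthesis therefore rests on the process annotation for 6 of the 8 genes, and for these 2 on the dioxygenase term alone. The oxidase genes Cs_ont_8g010170, Cs_ont_8g010180 and Cs_ont_8g010190 have identifiers that follow one another. They carried equal numbers of terms and the same terms among those compared here. Besides abscisic aldehyde oxidase these terms include indole-3-acetaldehyde oxidase, the activity by which such enzymes can make auxin, and all 3 genes were placed in the cytosol.

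Under salt stress the most abundant abscisic aldehyde oxidase gene was 1.97 times as high as in control, whereas the main NCED gene varied more within each group than between them. Expression is given as FPKM, read counts scaled to gene length and library depth. Levels can therefore be set side by side between genes, as far as the counted lengths are right. For the test by limma on log2(FPKM + 1), a gene needed 0.5 FPKM or more in 3 or more libraries. Changes of low genes come out too small on this scale. Adjustment of p was by Benjamini-Hochberg across the 17285 genes tested. Of the 8 genes, 5 passed this filter, 1 was detected below it, and 2 had no read in any library. At an adjusted p of 0.05 together with an absolute log2 fold change of 1, limma called 0 of the 5 genes, where 2.73% of all tested genes were called (0.978% higher and 1.75% lower in NaCl). At the adjusted p alone, 1 of the 5 passed, higher in NaCl (3.23% of all tested genes passed, 1.31% higher in NaCl), and at an unadjusted p of 0.05 from limma 2 did (30.3% of all tested genes in either direction). The log2 fold changes of the 5 genes had a median of -0.21, against 0.18 over all tested genes, and 2 of the 5 were positive (64.7% of all tested genes).

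The gene that passed was Cs_ont_8g010180, an oxidase gene and the most abundant of the 8 by mean FPKM in either group. Its FPKM was 30.2, 28.6 and 27.8 in the control libraries and 61.0, 44.6 and 64.6 in the NaCl libraries. The control libraries lay close together, and each NaCl library was above all of them. The means were 28.9 ± 1.23 FPKM for the controls and 56.8 ± 10.7 FPKM for NaCl (SD, n = 3 each), a ratio of 1.97. On the log2 scale NaCl exceeded control by 0.93 (standard error 0.17, 95% interval 0.53 to 1.34, limma adjusted p = 0.0453). The fold change stayed just under the threshold of 1 while the adjusted p stayed just under 0.05, and both depended on which libraries entered. The adjusted p also lay above 0.05 after quantile normalization (0.0505), upper-quartile scaling (0.0542), a pseudocount of 0.01 (0.0517), no filter (0.0606) and a block for the replicate number (0.0890). Without NaCl replicate 2, the lowest of the treated libraries, the log2 fold change was 1.10 and the gene passed both thresholds (limma adjusted p = 0.0471). In that fit 120 of 17285 tested genes passed both thresholds, 51 of them higher in NaCl. Without control replicate 2 the log2 fold change of Cs_ont_8g010180 was 0.93 (limma adjusted p = 0.0283). There 24.4% of all tested genes passed the adjusted p and 10.4% both thresholds. With any one of the other libraries left out it was 0.83 to 0.97 and the gene did not pass, at an adjusted p from limma of 0.0917 without NaCl replicate 1, 0.125 without control replicate 1, 0.162 without control replicate 3 and 0.197 without NaCl replicate 3.

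**Figure D1:**
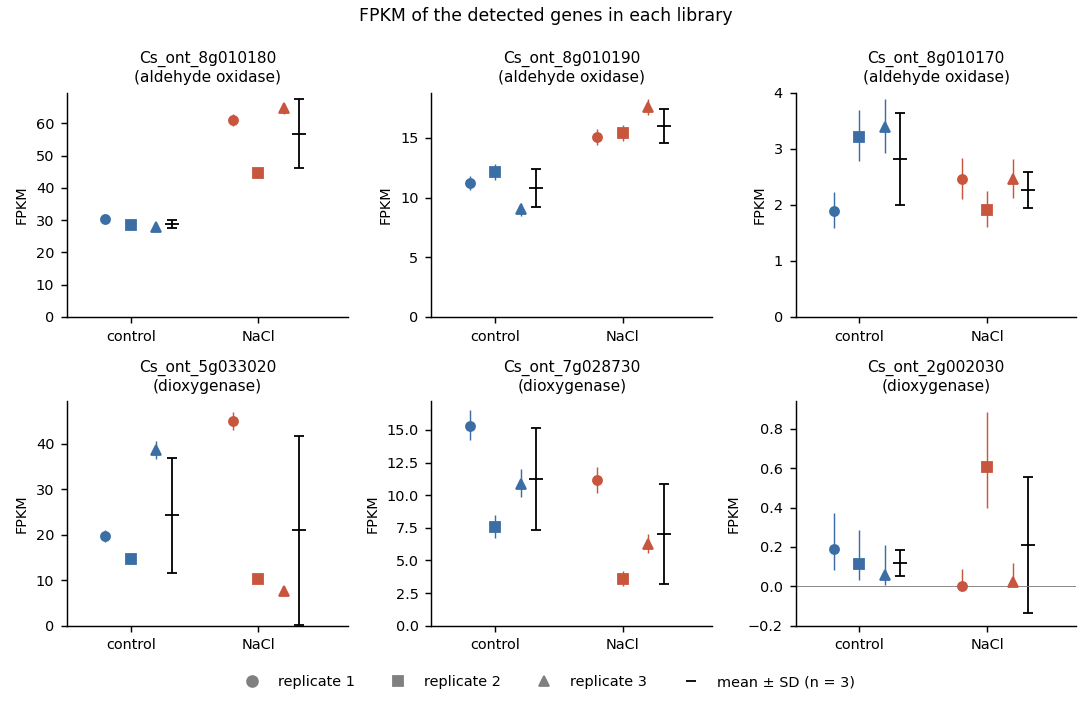
FPKM (vertical axes, from 0 or just below) of the 6 detected genes in the 3 control (blue) and 3 NaCl (red) libraries. Symbols give the replicate, thin bars the 95% Poisson interval of its reads (counting error only), and the black bar the mean ± SD. All 3 NaCl libraries of Cs_ont_8g010180 (44.6 to 64.6 FPKM) and Cs_ont_8g010190 (15.0 to 17.6 FPKM) lie above all controls, and the other genes overlap.

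The oxidase gene Cs_ont_8g010190 shifted in the same direction by less. It held 11.2, 12.1 and 9.0 FPKM in its control libraries and 15.0, 15.4 and 17.6 FPKM in its NaCl libraries, so its groups did not overlap either. Its means were 10.8 ± 1.61 and 16.0 ± 1.40 FPKM (SD, n = 3 each), a ratio of 1.49. The log2 fold change was 0.54 (standard error 0.16, 95% interval 0.15 to 0.92, limma adjusted p = 0.0951), which did not pass. Leaving out control replicate 2 gave 0.62 (limma adjusted p = 0.0411), again with 24.4% of all tested genes passing the adjusted p. With any one of the other libraries left out the log2 fold change was 0.42 to 0.58, at an adjusted p from limma of 0.134 to 0.294. In the other settings it was 0.35 to 0.58, at an adjusted p from limma of 0.0828 to 0.186.

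Cs_ont_8g010170, the remaining oxidase gene, was the lowest expressed of them and its log2 fold change had the opposite sign. Its FPKM was 1.88, 3.21 and 3.39 in control and 2.45, 1.90 and 2.46 in NaCl, and the NaCl libraries lay within the range of the controls. The means were 2.83 ± 0.822 and 2.27 ± 0.322 FPKM (SD, n = 3 each), with a log2 fold change of -0.21 (standard error 0.23, 95% interval -0.75 to 0.33, limma adjusted p = 0.553). These values rest on 137 to 201 reads per library, against 1651 to 5229 reads for Cs_ont_8g010180 and 980 to 2611 for Cs_ont_8g010190. Of the 5 tested genes, 2 had groups that did not overlap, both oxidases higher in NaCl, and 36.1% of all tested genes were separated in either direction (23.6% higher and 12.4% lower in NaCl).

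Because the 3 oxidase genes were measured in the same libraries, their ratios within a library show whether they moved together. Cs_ont_8g010180 was 8.21 to 16.0 times as abundant as Cs_ont_8g010170 in the control libraries and 23.5 to 26.3 times in the NaCl libraries, with no overlap between the groups. On the log2 scale the ratio was 1.24 higher in NaCl. The ratio of Cs_ont_8g010190 to Cs_ont_8g010170 was also separated, at 2.66 to 5.94 in control and 6.12 to 8.09 in NaCl. The 5.94 and the 6.12 came from replicate 1 of each group, with 137 and 176 reads of Cs_ont_8g010170. The 95% Poisson intervals of these reads were 1.58 to 2.23 and 2.11 to 2.85 FPKM, so counting error alone could close this gap. The ratio of Cs_ont_8g010190 to Cs_ont_8g010180 overlapped, at 0.324 to 0.425 in control and 0.246 to 0.345 in NaCl. Two-sided exact permutation tests on the log2 ratios gave p = 0.1 for the first, p = 0.1 for the second and p = 0.2 for the third. With 3 libraries against 3 the smallest p these tests can give is 0.1, so none can pass 0.05. Together with the ratio of the main dioxygenase genes, 4 ratios were compared, and the lowest adjusted p of the exact tests was 0.2. These ratios were chosen after the values had been seen.

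Summed over the 3 oxidase genes, expression was 40.2 to 43.9 FPKM in the controls and 61.9 to 84.7 FPKM with NaCl, means of 42.5 ± 2.00 and 75.0 ± 11.8 FPKM (SD, n = 3 each). The sums were separated (exact permutation test, two-sided, p = 0.1, the smallest possible with n = 3 in each group). Cs_ont_8g010180 made up 65.1% to 69.8% of this sum in control and 72.1% to 77.7% in NaCl, whereas the share of Cs_ont_8g010170 was 4.35% to 8.43% in control and 2.91% to 3.13% in NaCl. The length over which reads were counted, recovered from the FPKM steps, was 4143 bases for Cs_ont_8g010170, 4146 for Cs_ont_8g010180 and 7599 for Cs_ont_8g010190. The level and share of Cs_ont_8g010190 depend on its longer counted length, and whether that length fits its transcript was not tested. Genes with neighbouring identifiers and similar annotation can be near-identical copies. Counting may drop the reads that such copies share or assign them to one copy. The single values of these genes are uncertain to that extent, which was not tested.

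**Figure D2:**
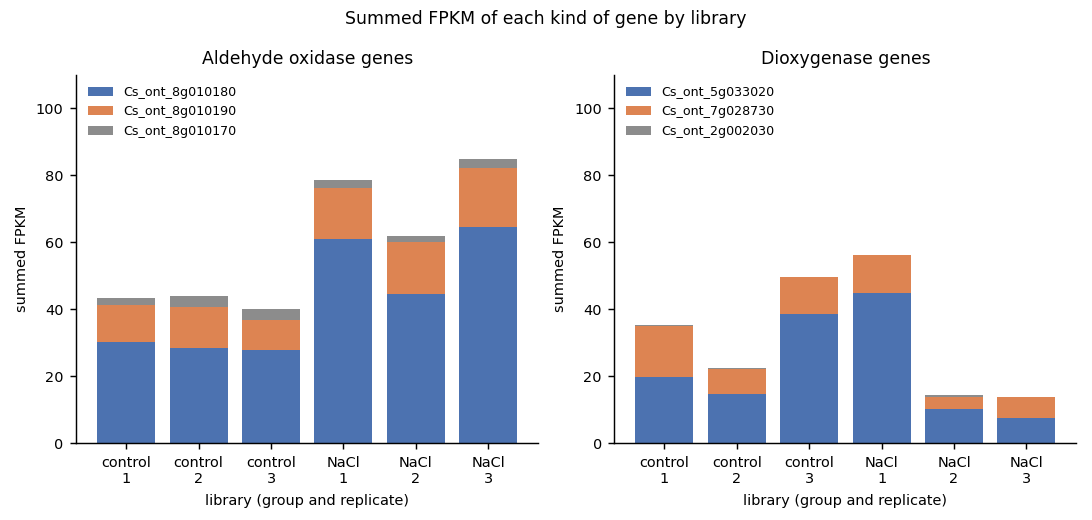
Summed FPKM (vertical axis, from 0) of the 3 oxidase genes (left) and of the 3 detected dioxygenase genes (right) in each library (horizontal axis), with each gene as a segment. The oxidase sum is 40.2 to 43.9 in control and 61.9 to 84.7 in NaCl, whereas the dioxygenase sum runs from 22.4 to 49.6 in control and from 13.9 to 56.1 in NaCl.

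The main NCED gene, Cs_ont_5g033020, differed strongly between libraries of the same group. Its FPKM was 19.7, 14.7 and 38.7 in control and 45.0, 10.2 and 7.61 in NaCl. The highest library of all was NaCl replicate 1 and the lowest were the other NaCl libraries, so that the control values lay entirely inside the NaCl range. The highest and lowest libraries differed 2.63-fold within control and 5.91-fold within NaCl. Each value rested on 384 to 2013 reads. The means were 24.3 ± 12.6 and 20.9 ± 20.9 FPKM (SD, n = 3 each), and the log2 fold change was -0.51 (standard error 0.66 and limma adjusted p = 0.615). Its 95% interval ran from -2.08 to 1.06 on the log2 scale. The value depended on single libraries and was -1.25 without NaCl replicate 1 (limma adjusted p = 0.150), -0.04 without NaCl replicate 3, -0.13 without control replicate 3 and -0.24 without NaCl replicate 2. In the last 3 of these fits the adjusted p from limma was 0.846 to 0.975.

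The spread of Cs_ont_5g033020 within groups was large for these data. Its pooled SD on the log2(FPKM + 1) scale was 1.04, above that of 97.7% of tested genes, whose median was 0.28. The oxidase genes were steady in comparison, with pooled SDs of 0.20 for Cs_ont_8g010180, 0.17 for Cs_ont_8g010190 and 0.26 for Cs_ont_8g010170.

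Cs_ont_7g028730, the dioxygenase gene annotated with carotenoid catabolism, was the other tested dioxygenase. Its FPKM was 15.3, 7.55 and 10.9 in control and 11.1, 3.58 and 6.26 in NaCl. NaCl replicates 2 and 3 lay below all controls, and NaCl replicate 1 lay among them. The means were 11.2 ± 3.90 and 6.99 ± 3.83 FPKM (SD, n = 3 each), and the log2 fold change was -0.68 (standard error 0.40, 95% interval -1.62 to 0.27, limma adjusted p = 0.281). Leaving out single libraries moved it between -1.04 (without NaCl replicate 1) and -0.33 (without NaCl replicate 2), and the adjusted p from limma lay between 0.159 and 0.562. In NaCl, replicate 1 was the highest library of both tested dioxygenase genes. The ratio of Cs_ont_5g033020 to Cs_ont_7g028730 was 1.28 to 3.56 in control and 1.22 to 4.04 in NaCl (exact permutation test, two-sided, p = 0.8).

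The remaining dioxygenase genes had few or no counted reads in these leaves. Cs_ont_2g002030 was detected with 8, 4 and 2 reads in control and 0, 26 and 1 reads in NaCl. In FPKM these were 0.189, 0.111 and 0.0579 in control and 0, 0.606 and 0.0212 in NaCl. Most of its reads came from NaCl replicate 2, whose 95% Poisson interval of 0.396 to 0.888 FPKM lay above those of the other libraries. The gene was below the minimum for testing, and an exact permutation test of its FPKM gave p = 1 (two-sided, n = 3 each). Cs_ont_1g027660, annotated with strigolactone biosynthesis, and Cs_ont_9g012550, annotated with abscisic acid biosynthesis and the response to red or far red light, had 0 reads in all 6 libraries. A count of 0 allows up to about 3 reads per library as a one-sided 95% bound, unlike the two-sided Poisson intervals above. This covers counting error only. Summed over the dioxygenase genes, the control libraries averaged 35.7 ± 13.6 FPKM and the NaCl libraries 28.1 ± 24.2 FPKM (SD, n = 3 each), with overlapping libraries (exact permutation test, two-sided, p = 0.6).

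The order of the levels differed little between the groups. In control it ran from Cs_ont_8g010180 (28.9 FPKM) through Cs_ont_5g033020 (24.3 FPKM), Cs_ont_7g028730 (11.2 FPKM) and Cs_ont_8g010190 (10.8 FPKM) to Cs_ont_8g010170 (2.83 FPKM). The ranges of the first 4 genes overlapped from each one to the next in control, and Cs_ont_8g010170 lay below them. In NaCl Cs_ont_8g010180 was above Cs_ont_5g033020 in 3 of 3 libraries, although NaCl replicate 1 of the latter (45.0 FPKM) exceeded NaCl replicate 2 of the former (44.6 FPKM). Cs_ont_8g010190 was above Cs_ont_7g028730 with no overlap in NaCl, where their control ranges had overlapped. By mean FPKM over all libraries, Cs_ont_8g010180 was above 85.0% of tested genes, Cs_ont_5g033020 above 71.9% and Cs_ont_8g010170 above 20.4%.

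**Figure D3:**
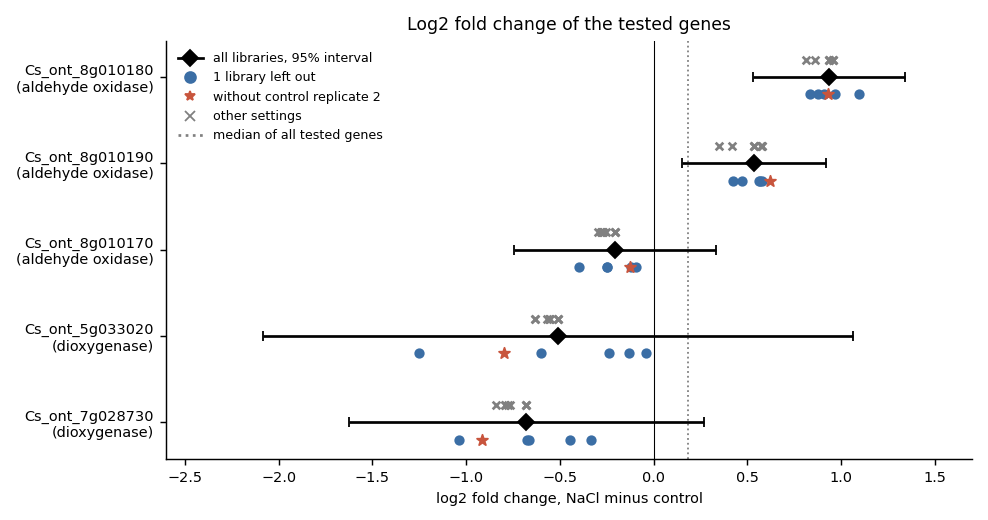
Log2 fold change of NaCl against control (horizontal axis) for the 5 tested genes. Diamonds give the estimate from all libraries with its 95% interval, dots the fits with 1 library left out, a star the fit without control replicate 2, crosses the other settings, and the dotted line the median of all tested genes (0.18). The intervals of Cs_ont_8g010180 and Cs_ont_8g010190 lie above 0, and those of the other genes include 0.

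Over all tested genes the log2 fold change had a median of 0.18, which either quantile normalization or upper-quartile scaling brought to 0.08. Relative to the median of 0.18, the log2 fold change was 0.75 for Cs_ont_8g010180, 0.35 for Cs_ont_8g010190, -0.39 for Cs_ont_8g010170, -0.69 for Cs_ont_5g033020 and -0.86 for Cs_ont_7g028730. The sign of each of the 5 genes was the same in all 14 alternative fits.

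In the lists of other steps around these enzymes, 2 of 53 tested genes were called at both thresholds, beside 2.73% of all tested genes. Genes singled out in the next paragraphs by their step were chosen after their values were seen, except Cs_ont_5g015520 and Cs_ont_8g009690, which had the lowest p of the lists. Of 8 genes annotated as zeaxanthin epoxidase, violaxanthin de-epoxidase or xanthoxin dehydrogenase, 6 were tested and 1 rose past both thresholds, with a median log2 fold change of 0.13. It was Cs_ont_5g015520, annotated as violaxanthin de-epoxidase, which converts violaxanthin to zeaxanthin in strong light. It held 5.14, 5.32 and 3.56 FPKM in the controls and 9.35, 11.5 and 13.8 FPKM with NaCl, with separated groups. On the log2 scale NaCl exceeded control by 1.15 (standard error 0.21 and limma adjusted p = 0.0470). Without control replicate 2 its adjusted p from limma was 0.0238, and with any one of the other libraries left out it was 0.0700 to 0.202. The call was also lost with quantile normalization, upper-quartile scaling, voom weights, a pseudocount of 0.01, no filter and the block, at adjusted p-values from limma of 0.0516 to 0.101. Cs_ont_6g025470, the gene annotated as xanthoxin dehydrogenase, the step between NCED and the oxidase, held 32.8, 29.1 and 31.8 FPKM in the controls and 41.1, 26.9 and 46.9 FPKM with NaCl. Its groups overlapped and its log2 fold change was 0.25 (limma adjusted p = 0.444).

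Of the 4 genes for enzymes of the molybdenum cofactor, on which aldehyde oxidases depend, 3 were tested and 0 passed the adjusted p from limma (1 at an unadjusted p of 0.05). Cs_ont_2g030270, annotated as molybdopterin synthase, was separated in the other direction, with 15.4, 15.4 and 15.0 FPKM in the controls and 13.4, 14.7 and 11 FPKM with NaCl (log2 fold change -0.22, limma adjusted p = 0.343). Cs_ont_2g027680, annotated with the steps that make the cofactor from molybdopterin, held 15.8, 16.9 and 11.7 FPKM in the controls and 19.0, 19.6 and 23.1 FPKM with NaCl. Its groups were separated, with a log2 fold change of 0.46 and an adjusted p of 0.143 from limma. Cs_ont_4g019500, annotated as cofactor sulfurase, which activates aldehyde oxidases, held 1.21 to 4.68 FPKM in the controls and 3.75 to 10.7 FPKM with NaCl. Its groups overlapped, with a log2 fold change of 0.93 (limma adjusted p = 0.210). The counted length of this gene was only 330 bases, and Cs_ont_4g019470, which carried the same term, was at 0 in every library. Xanthine dehydrogenase, a relative of the aldehyde oxidases that uses the same cofactor, had 1 tested gene, Cs_ont_2g032330, with 17.8 to 21.0 FPKM in control, 18.7 to 21.9 FPKM in NaCl and a log2 fold change of 0.02 (95% interval -0.31 to 0.35).

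Among the genes that act on the finished hormone, 0 of 6 tested genes for abscisic acid 8'-hydroxylase, which breaks it down, passed the adjusted p or an unadjusted p of 0.05 from limma, with log2 fold changes from -0.29 to 0.43. Cs_ont_6g020100, the gene for abscisic acid glucosyltransferase, which conjugates it, was separated between the groups, at 8.02 to 13.6 FPKM in the controls and 16.7 to 29.7 FPKM with NaCl, but did not pass (log2 fold change 0.91, limma adjusted p = 0.0954). Of 7 tested genes annotated with abscisic acid binding, 1 passed the adjusted p alone. It was Cs_ont_9g027270, a candidate receptor by this term, with 10.8 to 11.6 FPKM in the controls and 19.0 to 29.2 FPKM with NaCl (log2 fold change 0.95, limma adjusted p = 0.0496). This adjusted p lay just under 0.05, and its values in the alternative fits are not given here. All 7 of these genes had a positive log2 fold change, beside 64.7% of all tested genes. In the KEGG pathway of carotenoid biosynthesis outside the 8 genes, 36 of 46 genes were tested, 1 rose and 1 fell past both thresholds, and the median log2 fold change was 0.26. The gene that fell, Cs_ont_8g009690, is listed by its KEGG pathway and carried none of the function terms searched for here. It went from 3.36, 2.90 and 2.22 FPKM in control to 0.401, 0 and 0.0254 FPKM in NaCl (log2 fold change -1.75 with a standard error of 0.23, limma adjusted p = 0.0373). Its adjusted p from limma was 0.0186 without control replicate 2, 0.0418 without NaCl replicate 1 and 0.0528 to 0.168 with any one of the other libraries left out. The value rested on the pseudocount, at -3.97 with 0.1, -5.73 with 0.01 and -5.57 with voom weights, and the call was lost with a pseudocount of 0.01, no filter and the block (adjusted p from limma of 0.0517 to 0.0740). Over all listed genes, the 2 calls became 5 without control replicate 2, 1 without NaCl replicate 1 and 0 without any one of the other libraries.

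**Figure D4:**
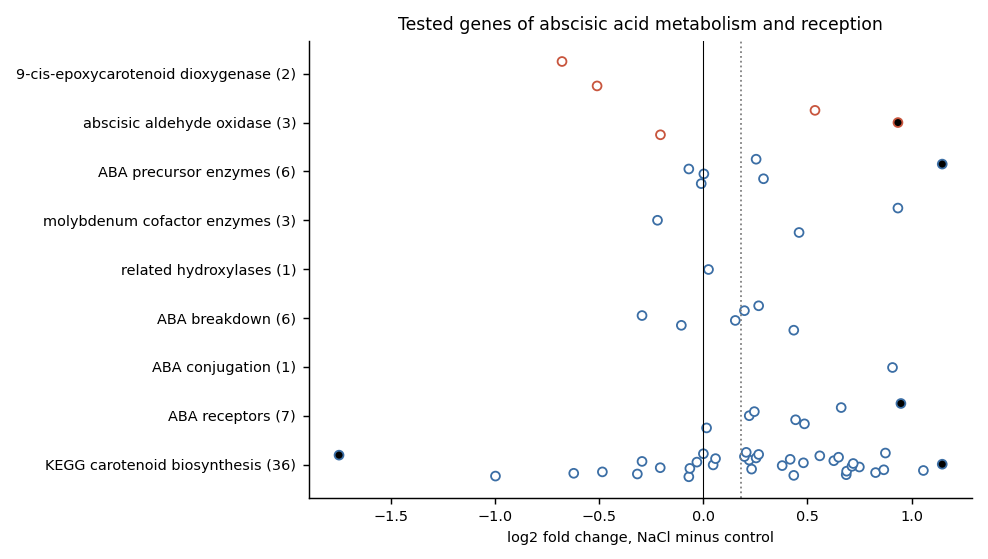
Log2 fold change of NaCl against control (horizontal axis) for the tested genes of each group (vertical axis, number tested in brackets). Filled points passed an adjusted p of 0.05, the dotted line is the median of all tested genes (0.18), and some genes, Cs_ont_5g015520 among them, appear under both the precursor enzymes and the KEGG pathway. Of the dioxygenase and oxidase genes (red outlines), 1 point is filled, at 0.93.

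Across the 6 libraries, the genes of these lists whose log2(FPKM + 1) followed that of Cs_ont_8g010180 most closely, out of 53 tested, were Cs_ont_7g010910 (Pearson r = 0.95) and Cs_ont_9g027270 (r = 0.94), both annotated with abscisic acid binding, and Cs_ont_9g017170 (r = 0.93), annotated as lycopene beta cyclase. The 6 libraries include both groups, so these values describe a shared difference between the groups as well as likeness within them. The lycopene beta cyclase gene, whose enzyme closes the rings of lycopene on the way to beta-carotene, held 3.03 to 4.97 FPKM in the controls and 7.45 to 8.43 FPKM with NaCl. Among the dioxygenase and oxidase genes, the correlation was 0.89 between Cs_ont_8g010180 and Cs_ont_8g010190 and 0.69 between the tested dioxygenase genes, over the same 6 libraries.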

How the data were processed

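Leaf RNA-seq of 3 control and 3 NaCl libraries was analysed. The study's methods give trimming with Trim Galore, alignment with HISAT2 to the sweet orange genome and counting with featureCounts. The submitters' notes list HTSeq beside HISAT2, so the counter is uncertain. The authors deposited FPKM per gene and library, with group means. They also deposited their own log2 fold change and p-value per gene, which were not used. Identifiers of the Cs_ont series matched 0 entries of the RefSeq table, so genes are named by identifier and annotation, and no coordinates are given.

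The members were found by their GO function terms. The members and lists were chosen with earlier results of these data known. By rule, the named genes were all members, the 2 genes of the pathway lists with the lowest p, and the 3 list genes most alike to the most abundant member. Other named genes were chosen after their values were seen. Because FPKM is no count, the count-based test of the study's methods was replaced by limma (version 3.58.1, R 4.3.3) with a mean-variance trend on log2(FPKM + 1), at the thresholds of those methods (adjusted p of at most 0.05, absolute log2 fold change of at least 1). Whole reads were recovered from the FPKM steps for 100% of the 23073 genes above 0 (relative tolerance 1e-09), which gave depth, counted length and reads per gene. Exact tests ran over 20 allocations of the libraries (Python 3.11.15, scipy 1.17.1). The limma fit was checked on simulated data. Alternatives were each library left out, the replicate number as a block, other filters, pseudocounts and scalings, other thresholds, and limma with voom weights on recovered reads. The p-values from limma set the difference of the groups against the spread between these libraries within groups, moderated over all tested genes. Exact p-values give the share of the 20 allocations with a difference at least as large.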

Additional observations from a re-analysis of the deposited data

How the results depend on the processing

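With all libraries, limma called 0 of the 5 tested dioxygenase and oxidase genes at both thresholds. It called 0 to 1 with single libraries left out, and 1 at the adjusted p alone. The adjusted p of Cs_ont_8g010180 (0.0453) ranged from 0.0445 to 0.0890 over the other settings. It was above 0.05 with the replicate block (0.0890), no filter (0.0606), a pseudocount of 0.01 (0.0517), quantile normalization (0.0505) and upper-quartile scaling (0.0542). With voom weights on recovered reads it was 0.0469. Its log2 fold change was 0.81 to 0.96 in these settings, and the cause of the differences was not tested.

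Of the 53 tested genes in the pathway lists, 2 were called with all libraries, 0 to 5 with single libraries left out, 0 with the replicate block, no filter or a pseudocount of 0.01, and 1 with quantile normalization, upper-quartile scaling or voom weights. Over all genes the count was 472 (169 higher and 303 lower, and 85 and 275 with upper-quartile scaling). It ranged from 0 to 1800 with single libraries left out, the highest without control replicate 2, and was 7 with the replicate block, 40 with no filter, 308 with a pseudocount of 0.01 and 1493 at an unadjusted p. The labels do not say whether equal replicate numbers are pairs, and the values showed no sign of it. The correlations of their deviations from the group means were -0.03, 0.03 and -0.07. Of the 3 control libraries, 0 correlated best with the NaCl library of their own number. With so few libraries this cannot exclude pairing. Depth limits Cs_ont_2g002030, with 0 to 26 reads per library, and the 2 genes with no reads.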
